A study of Mus musculus with 15 samples.

Results

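Yap1 and 7 protein-coding genes around it on mouse chromosome 9 are described here: Tmem123, Birc2 and Birc3 on its proximal side, and Cfap300, Cep126, Arhgap42 and Cntn5 on its distal side. All 8 were found by symbol in a table of 55471 genes. They had been chosen for how they behaved in these libraries, so their values, fitted differences and calls below are a description and test nothing. The series is about YAP1 in bone mesenchymal stem cells, about EWS::FLI1, the fused transcription factor that drives Ewing sarcoma, and about the growth factor IGF-1. Poly(A) RNA of 15 mouse libraries, all given the cell type label MSCLCs, was sequenced in 2 experiments on different flowcells. Experiment 1 held 4 EFPrx1MSCLC libraries, titled 219, 221, 225 and 229, and 3 MSC libraries, titled 202, 234 and 237, which the design text calls WT; these names are the genotype labels. Experiment 2 held 4 libraries labelled hr, 2 labelled ha and 2 labelled EF, all with the title number 221; the design text calls them hr-EFPrx1, ha-EFPrx1 and EFPrx1. The titles add Combi and uns to hr and Combi and T to ha. No label explains EF, ha, hr, Combi, uns or T, and none gives a promoter that drives the fusion or the age of an animal. With 1 title number, experiment 2 may rest on cells of 1 origin, and no label says that its libraries came from separate cultures.

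YAP1 is a transcriptional coactivator that enters the nucleus when the Hippo kinases are inactive and switches on growth genes together with TEAD factors. BIRC2 and BIRC3, also known as cIAP1 and cIAP2, are ubiquitin ligases that hold back caspase-driven death downstream of the TNF receptor and restrain non-canonical NF-kB signalling. The stretch of the genome that carries YAP1 and the BIRC genes is a known site of gene amplification in human and mouse tumours. DNA copy number was not measured in these libraries.

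On GRCm38 the 8 genes lie on chromosome 9 within 3140.7 kb. Tmem123 (ENSMUSG00000050912, 7764041 to 7794333) is on the plus strand, and the 7 others are on the minus strand. Birc2 (ENSMUSG00000057367) spans 7818227 to 7837064 and Birc3 (ENSMUSG00000032000) 7848699 to 7873186. A gap of 58.8 kb separates Birc3 from Yap1 (ENSMUSG00000053110), which spans 7931999 to 8004596. Cfap300 (ENSMUSG00000053070, 8021672 to 8042823) and Cep126 (ENSMUSG00000040729, 8076461 to 8134294) follow close by. Arhgap42 (ENSMUSG00000050730, 8994329 to 9239101) and Cntn5 (ENSMUSG00000039488, 9660891 to 10904775) lie farther out, so Yap1 and Cntn5 together span 2972.8 kb. Beyond Cntn5 the next protein-coding gene, Jrkl, is 2337.8 kb away.

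The sequence upstream of 3 of the 5 genes that were higher in hr than in ha (Yap1, Cep126 and Arhgap42) is shown. That of Birc3, a near neighbour that was lower, is set beside them. Each holds the 250 bases before the RefSeq start on GRCm38.p6, read 5′ to 3′ on the minus strand, at chr9:8004597-8004846 for Yap1, chr9:8134447-8134696 for Cep126, chr9:9239028-9239277 for Arhgap42 and chr9:7873171-7873420 for Birc3. Capitals mark GGAATG, the core that TEAD factors bind, and GGAAGGAA, a pair of the GGAA units that ETS factors bind, searched on both strands.
Yap1: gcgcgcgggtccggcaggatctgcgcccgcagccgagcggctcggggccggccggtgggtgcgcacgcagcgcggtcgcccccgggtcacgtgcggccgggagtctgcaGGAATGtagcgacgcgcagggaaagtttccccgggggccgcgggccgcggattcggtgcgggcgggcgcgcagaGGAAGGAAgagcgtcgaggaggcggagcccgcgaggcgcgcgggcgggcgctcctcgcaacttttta
Cep126: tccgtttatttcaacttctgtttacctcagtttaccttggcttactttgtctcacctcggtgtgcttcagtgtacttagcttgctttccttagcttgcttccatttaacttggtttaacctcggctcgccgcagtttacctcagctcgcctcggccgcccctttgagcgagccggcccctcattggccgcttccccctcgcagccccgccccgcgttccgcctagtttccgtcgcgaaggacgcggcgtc
Arhgap42: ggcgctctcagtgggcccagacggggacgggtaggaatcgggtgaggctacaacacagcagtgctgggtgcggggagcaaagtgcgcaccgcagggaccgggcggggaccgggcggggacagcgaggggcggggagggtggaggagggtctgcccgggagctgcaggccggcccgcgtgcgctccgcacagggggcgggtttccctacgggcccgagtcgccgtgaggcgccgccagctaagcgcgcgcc
Birc3: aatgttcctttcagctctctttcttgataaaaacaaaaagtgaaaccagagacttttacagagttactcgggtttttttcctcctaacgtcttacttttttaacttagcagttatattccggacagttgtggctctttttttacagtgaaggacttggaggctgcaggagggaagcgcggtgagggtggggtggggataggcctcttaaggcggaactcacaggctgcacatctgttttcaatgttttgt
RefSeq gave 12 promoters for the 8 genes. Yap1 had 1 GGAATG beginning 141 bases before its start and 1 GGAAGGAA beginning 67 bases before it, and the other 11 promoters held neither. Among 32851 mouse promoters of this length, 12.64% held GGAATG and 3.12% held GGAAGGAA. The window was GC-rich at Yap1 (76.4%) and Arhgap42 (75.2%), intermediate at Cep126 (57.2%) and poor in GC at Birc3 (43.6%). The matches are letters in a window and were not tested for binding.

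Libraries of experiment 1 held 14906251 to 26833939 expected counts and those of experiment 2 held 11195431 to 16378416. Some libraries of experiment 2 lay close to the sampling noise of counts: the ratio of their distance to that noise was 1.36 for the EF pair and 1.31 and 1.29 for the hr pairs with the same number after uns, against 14.8 to 16.1 for the other hr pairs and 19.5 for the ha pair. They may be repeat libraries of 1 sample, so results that end when they are summed are named. All 10 mesenchymal markers averaged at least 1 CPM in every group, but their summed level differed. It was 2909 to 8646 CPM in EFPrx1MSCLC against 11143 to 16919 CPM in MSC. In experiment 2 it was 7739 to 8284 CPM in hr, 16673 to 17359 CPM in ha and 8641 to 8741 CPM in EF. Not every marker went with the sum in experiment 1. Col1a1 averaged 831 CPM in EFPrx1MSCLC and 4983 CPM in MSC, but Prrx1 681 and 188 CPM. The median log2 fold change of the 10 was 0.58 in EFPrx1MSCLC against MSC. Of the 5 epithelial markers, Krt19 averaged 33.5 CPM in hr, 0.131 CPM in ha and 10.3 CPM in EF. Krt8 averaged 2.13 CPM in hr, 0.493 CPM in ha and 3.05 CPM in EF, and was thus highest in EF. Epcam, Cdh1 and Krt18 averaged under 1 CPM in all 3 groups. Hematopoietic markers (16 genes, among them Ptprc, Csf1r and Adgre1) summed to 54.9 to 522 CPM in EFPrx1MSCLC and to 11028 to 31122 CPM in MSC, and to 7.98 to 30.3 CPM over hr, ha and EF. The 522 CPM were those of EFPrx1MSCLC 219, and the other EFPrx1MSCLC libraries had 54.9 to 72.0 CPM. The part of these marker differences in the results below was not tested. In bulk RNA, fewer cells of a type and less RNA per cell cannot be told apart.

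**Figure D1:**
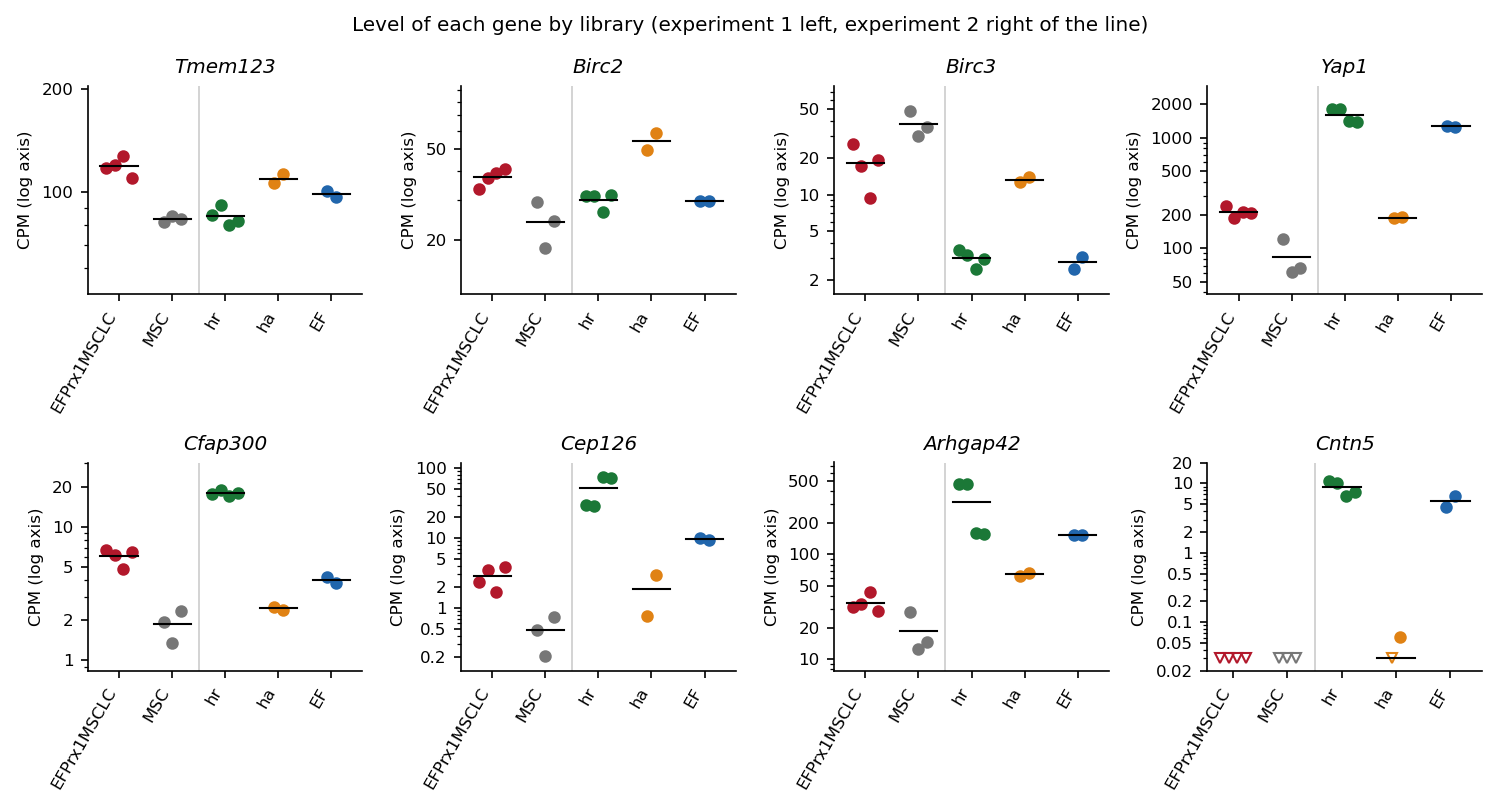
Level of each of the 8 genes in every library, in CPM of the library total on a log axis; points are libraries, lines group means, and open triangles libraries with 0 counts. From Yap1 to Cntn5 the ha libraries sit below both hr and EF, whereas for Birc2 and Birc3 they sit above both.

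Yap1 was high in hr and EF cells and low in ha cells. Its level, in CPM (each count over its library total, rescaled), was 1823, 1832, 1408 and 1395 in hr libraries 1-1, 1-2, 2-1 and 2-2, against 188 and 192 in ha and 1285 and 1242 in EF. Each ha library lay far below each hr and EF library, and each hr library lay above both EF libraries. The mean of hr was 8.50 times that of ha, and the mean of ha 0.150 times that of EF. As log2 fold changes fitted over all genes, the differences were -2.73 ± 0.18 for ha against EF, 0.35 ± 0.15 for hr against EF and 3.08 ± 0.17 for hr against ha (edgeR, ± SE, n = 2 to 4 per group). In experiment 1 Yap1 had 239, 187, 213 and 209 CPM in EFPrx1MSCLC libraries 219, 221, 225 and 229, against 122, 61.8 and 67.0 CPM in MSC libraries 202, 234 and 237. All 4 EFPrx1MSCLC values lay above the 3 MSC values, with a log2 fold change of 1.09 ± 0.30. The library 221 of experiment 1 thus had 187 CPM of Yap1 and the EF libraries of experiment 2, with the same title number, 1242 and 1285; the experiments were not tested against each other, since flowcell and experiment cannot be told apart.

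A gene counts as called where edgeR's quasi-likelihood test, adjusted over all genes tested, gave a p under 0.05. In hr against ha all 8 genes were called, 5 higher (Yap1, Cfap300, Cep126, Arhgap42 and Cntn5) and 3 lower (Tmem123, Birc2 and Birc3), where 39.4% of the 13998 genes tested were called (17.9% higher and 21.5% lower). For ha against EF 6 of 8 were called, 2 higher (Birc2 and Birc3) and 4 lower (Yap1, Cfap300, Cep126 and Cntn5), beside 42.6% of all genes tested (23.0% higher and 19.6% lower). For hr against EF only Cfap300 of the 8 was called, as higher, beside 6.95% (3.88% higher and 3.07% lower). In experiment 1 7 of the 8 could be tested and 4 were called, Yap1, Cfap300 and Cep126 higher and Birc3 lower, beside 19.8% of 14596 genes (7.70% higher and 12.1% lower). In CPM of the library total, without the TMM scaling that the fit uses, libraries of the groups did not overlap for 7 of 7 genes in experiment 1 (39.0% of all genes tested). It was 8 of 8 in ha against EF (75.3%), 5 of 8 in hr against EF (46.7%) and 8 of 8 in hr against ha (55.5%). Because the genes were picked with these contrasts known, nothing is read from the counts. The comparisons of experiment 2 also share their libraries. With near-identical libraries summed, the calls of ha against EF were those of Yap1 and Cntn5 alone, hr against ha kept Yap1, Cfap300, Cep126 and Cntn5 as higher and Birc3 as lower, and Cfap300 lost its call in hr against EF. The calls of experiment 1 were not stable when 1 library was left out. That of Yap1 was lost in every omission of 1 library except MSC 202. That of Cfap300 was lost without EFPrx1MSCLC 219, 221 or 229 or MSC 234 or 237. Those of Cep126 and Birc3 were lost without EFPrx1MSCLC 221 or 229 or any 1 MSC library. Calls over all genes also fell, from 2887 to between 1219 and 1673, without EFPrx1MSCLC 221 or 229 or MSC 234 or 237. With no filter on low counts, Birc3 was the 1 gene of the 8 still called in experiment 1.

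Cfap300 and Cep126, the genes next to Yap1 on its distal side, were highest in hr. Cfap300 encodes a cilium protein needed to assemble dynein arms. It had 17.5, 19.0, 17.0 and 17.9 CPM in hr, against 2.52 and 2.38 in ha and 4.20 and 3.81 in EF. The 3 groups did not overlap, and hr stood 4.46-fold above EF, a larger step than that of Yap1 (1.28-fold). In experiment 1 it had 6.68, 6.11, 4.86 and 6.52 CPM in EFPrx1MSCLC and 1.93, 1.34 and 2.35 CPM in MSC. The log2 fold changes were 1.43 ± 0.39 in experiment 1, -0.70 ± 0.17 for ha against EF, 2.16 ± 0.15 for hr against EF and 2.86 ± 0.16 for hr against ha. Cfap300 lost its call in ha against EF without ha 2, EF 1 or EF 2, and in hr against EF without EF 1 or EF 2.

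Cep126 encodes a centrosomal protein that takes part in forming cilia. Its level was 29.8, 28.3, 74.9 and 72.3 CPM in hr, against 0.769 and 2.93 CPM in ha and 9.83 and 9.45 CPM in EF. No library of one group reached another group, and the hr libraries formed 2 pairs. In experiment 1 it was low throughout, with 2.36, 3.44, 1.71 and 3.80 CPM in EFPrx1MSCLC against 0.483, 0.201 and 0.738 CPM in MSC, where it had 26 counts in all. Fitted log2 fold changes were 2.32 ± 0.60 in experiment 1, -2.36 ± 0.72 for ha against EF, 2.42 ± 0.59 for hr against EF and 4.78 ± 0.70 for hr against ha. Its call in ha against EF was lost without ha 1, EF 1 or EF 2. In hr against EF it was called only in some alternatives, among them the fit without ha 1 or ha 2.

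Arhgap42 and Cntn5, the distant genes of the distal side, followed the same order of groups. Arhgap42 encodes a GTPase-activating protein that turns off RhoA, known from smooth muscle. It had 471, 467, 160 and 156 CPM in hr, against 62.7 and 66.7 CPM in ha and 154 in both EF libraries. All hr and EF values lay above those of ha, but the pair of hr libraries titled uns-2 lay barely above EF. Its log2 fold change was 2.26 ± 0.54 for hr against ha, -1.24 ± 0.56 for ha against EF and 1.02 ± 0.50 for hr against EF. In experiment 1 the values were 31.3, 33.5, 44.1 and 28.7 CPM in EFPrx1MSCLC and 28.0, 12.4 and 14.7 CPM in MSC, with a log2 fold change of 0.65 ± 0.35. The call in hr against ha was lost without ha 1 or ha 2, and without MSC 202 the experiment 1 difference became a call.

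Cntn5 encodes contactin 5, a neural cell adhesion molecule anchored on the outer face of the cell membrane. It had 0 counts in all 7 libraries of experiment 1. In experiment 2 it had 10.9, 10.3, 6.61 and 7.55 CPM in hr, against 0 and 0.0611 CPM in ha and 4.56 and 6.67 CPM in EF. The ha libraries together held 1 count, beside 427 in hr and 135 in EF. By counting error alone, the ratio of hr to ha lay between 47.8 and 10598 and that of ha to EF between 0.000144 and 0.0326 (95% interval). The hr and EF libraries overlapped, with a log2 fold change of 0.65 ± 0.32.

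The genes on the proximal side did not follow Yap1 in experiment 2. Birc2 had 31.0, 31.2, 26.4 and 31.5 CPM in hr, against 49.5 and 58.8 CPM in ha and 29.7 in both EF libraries. The ha libraries were the highest, while hr and EF overlapped. Its log2 fold change was 0.87 ± 0.12 for ha against EF, -0.85 ± 0.10 for hr against ha and 0.01 ± 0.11 for hr against EF. In experiment 1 Birc2 had 33.4, 37.2, 39.1 and 40.7 CPM in EFPrx1MSCLC and 29.3, 18.5 and 24.1 CPM in MSC. The groups did not overlap in CPM, but the log2 fold change of 0.40 ± 0.23 was not called. The fit also rescales libraries (TMM), with factors of 1.03 to 1.13 in EFPrx1MSCLC and 0.887 to 0.931 in MSC. This lowers EFPrx1MSCLC relative to MSC, so the gap in CPM need not remain on the scale of the fit.

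Birc3 was low in hr and EF. It had 3.52, 3.18, 2.44 and 2.99 CPM in hr, against 12.7 and 13.8 CPM in ha and 2.45 and 3.10 CPM in EF. The ha values were at least 3 times any value of the other groups, which overlapped. Log2 fold changes were 2.27 ± 0.25 for ha against EF, -2.14 ± 0.20 for hr against ha and 0.13 ± 0.22 for hr against EF. In experiment 1 the direction was opposite to that of Yap1, with 26.1, 17.3, 9.44 and 19.3 CPM in EFPrx1MSCLC and 48.6, 30.1 and 36.1 CPM in MSC, a log2 fold change of -1.35 ± 0.34. The summed hematopoietic markers were likewise higher in every MSC library. Birc2 and Birc3 are close paralogs, so the split of shared reads between them is an estimate.

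Tmem123, which encodes a membrane protein of the cell surface linked in human cells to oncotic death, had small differences. It had 85.7, 91.4, 80.2 and 81.9 CPM in hr, against 106 and 113 CPM in ha and 101 and 96.9 CPM in EF. The 3 groups did not overlap, in the order ha, EF and hr. Its log2 fold changes were 0.15 ± 0.10 for ha against EF, -0.22 ± 0.08 for hr against EF and -0.37 ± 0.08 for hr against ha. EFPrx1MSCLC had 117, 120, 128 and 110 CPM and MSC 81.5, 85.2 and 83.1 CPM, a log2 fold change of 0.26 ± 0.19.

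**Figure D2:**
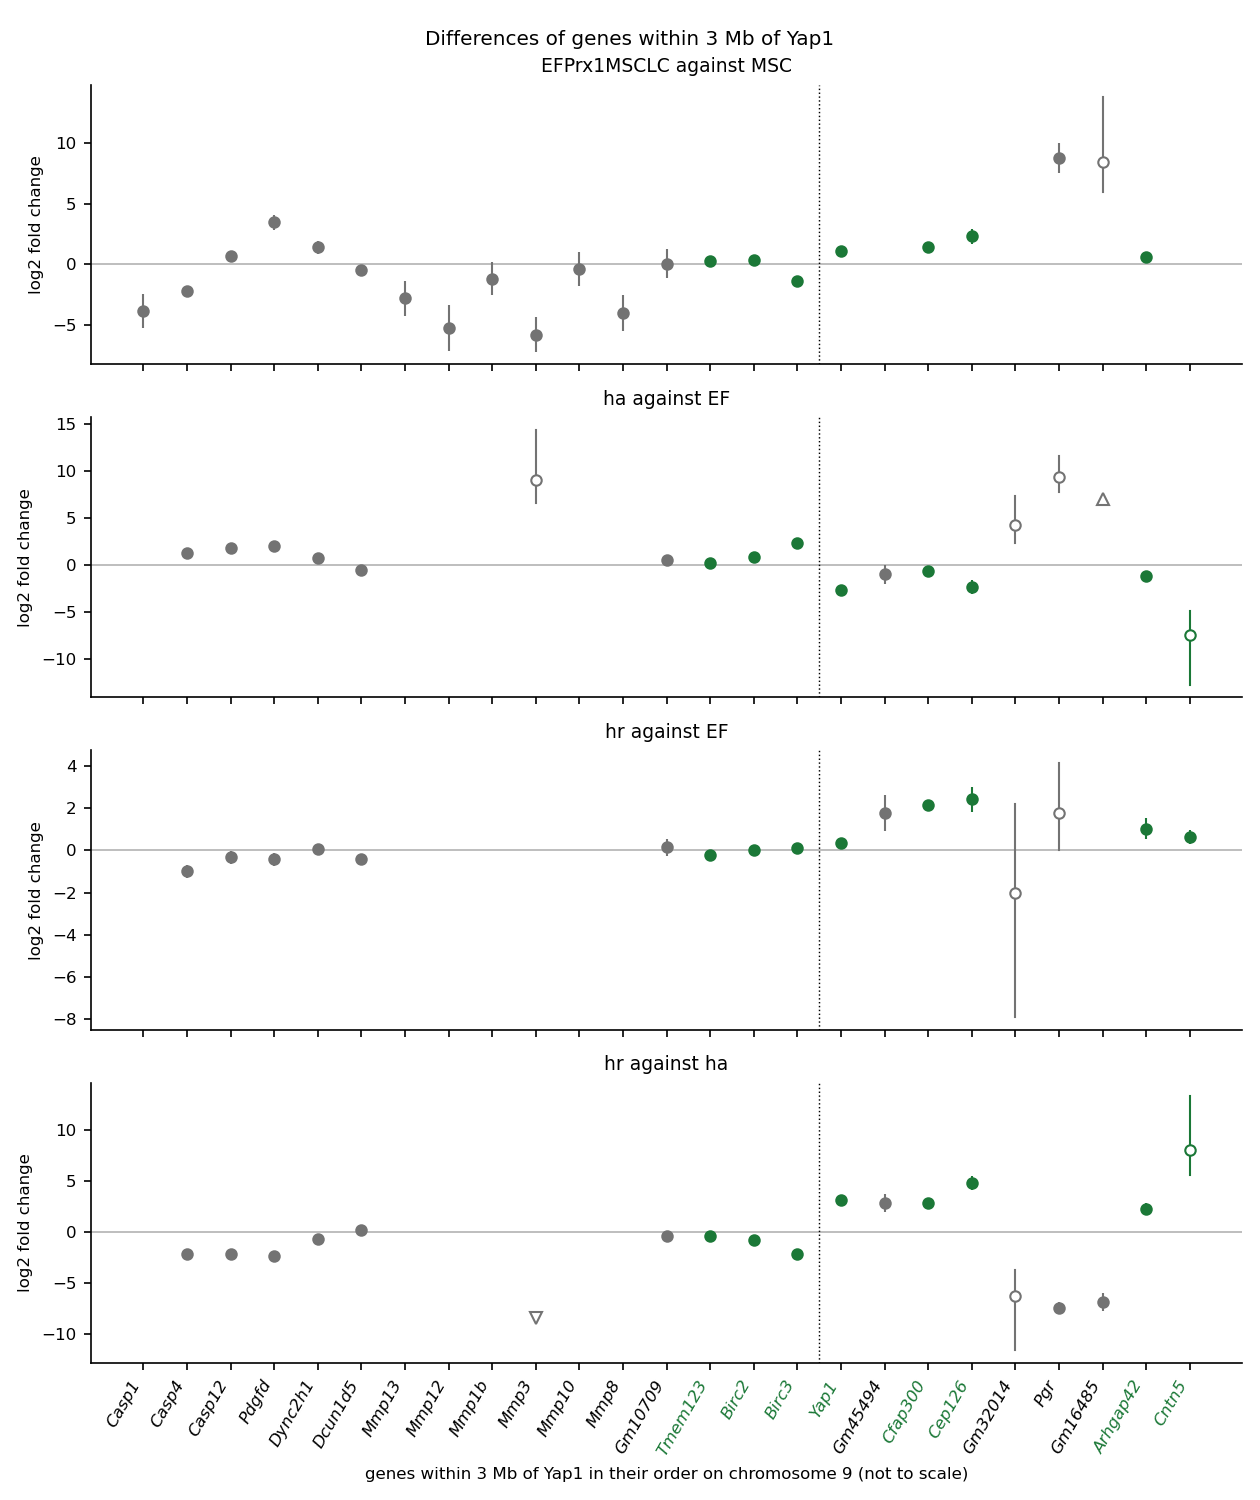
Log2 fold change of each tested gene within 3 Mb of Yap1, in chromosomal order, for the 4 comparisons; green marks the 8 genes, grey the others, and the dotted line the proximal edge of Yap1. Filled points are edgeR fits ± SE, open circles ratios of summed counts with 95% counting intervals where 1 group held 1 to 3 counts, and triangles bounds where a group held none. In hr against ha the genes from Yap1 on are higher except Gm32014, Pgr and Gm16485, and Tmem123, Birc2 and Birc3 are lower.

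Among the hr libraries, uns-1 and uns-2 differed at some of these genes, shown as values with no test since each pair may be 1 sample. Arhgap42 averaged 469 CPM in uns-1 and 158 CPM in uns-2, a ratio of 2.97, whereas Cep126 went the other way with 29.1 and 73.6 CPM, 2.53-fold more in uns-2. Libraries with the same number differed by at most 5.18% for Cep126 and 2.47% for Arhgap42. Yap1 itself averaged 1828 and 1402 CPM in uns-1 and uns-2, and Cfap300 18.3 and 17.5 CPM. Over 13774 genes, 5.50% were at least as far apart between uns-1 and uns-2 as Arhgap42, 7.31% as Cep126 and 41.0% as Yap1. Against the EF mean, Cep126 stood 3.01-fold higher in uns-1 and 7.63-fold higher in uns-2, and Arhgap42 3.04-fold and 1.02-fold.

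**Figure D3:**
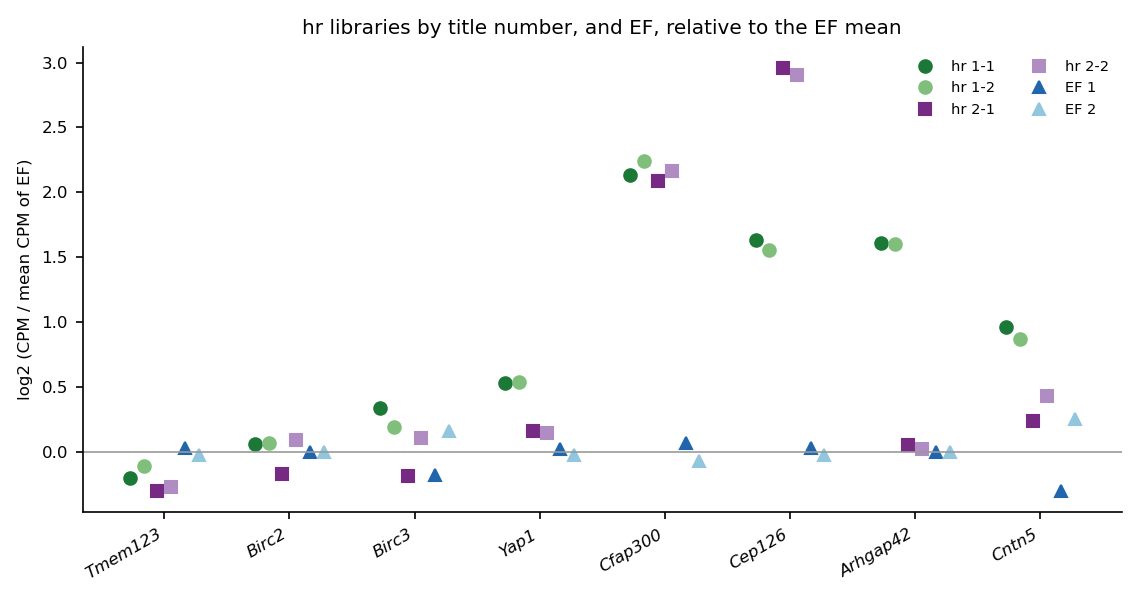
Log2 ratio of each hr and EF library to the mean of EF for the 8 genes, in CPM. Cfap300 is raised alike in all 4 hr libraries, Cep126 most in hr 2-1 and 2-2, and Arhgap42 only in hr 1-1 and 1-2.

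Ratios within a library do not depend on library scaling. There were 58.9, 58.8, 53.3 and 44.3 Yap1 counts per Birc2 count in hr, against 3.79 and 3.26 in ha and 43.3 and 41.8 in EF. In experiment 1 the ratio was 7.17, 5.04, 5.44 and 5.13 in EFPrx1MSCLC and 4.16, 3.34 and 2.78 in MSC. Within experiment 2 the ha libraries lay far below every hr and EF library, and within experiment 1 each EFPrx1MSCLC library lay above the 3 MSC libraries. Arhgap42 counts per Yap1 count were 0.258, 0.255, 0.114 and 0.112 in hr, 0.334 and 0.347 in ha and 0.120 and 0.124 in EF, so Arhgap42 and Yap1 did not keep 1 ratio.

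**Figure D4:**
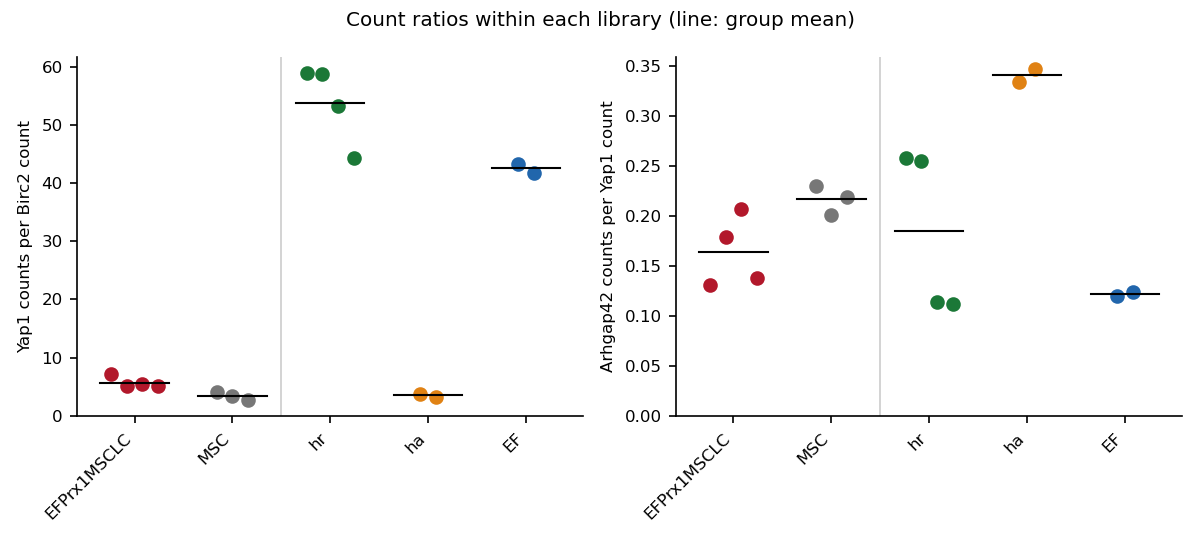
Yap1 counts per Birc2 count (left) and Arhgap42 counts per Yap1 count (right) in each library, with the group mean as a line. The left ratio is 41.8 to 58.9 in hr and EF and 2.78 to 7.17 in all other libraries.

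Per kilobase of annotated exon, Yap1 led the 8 genes in hr (174 ± 26.6 CPM per kb, SD, n = 4) and in EF (136 ± 3.28, n = 2). In ha Tmem123 came first with 35.2 ± 1.56 CPM per kb and Yap1 second with 20.5 ± 0.333 (n = 2). Tmem123 also led in EFPrx1MSCLC (38.2 ± 2.40, n = 4) and in MSC (26.8 ± 0.592, n = 3), ahead of Yap1 with 22.9 ± 2.30 and 9.02 ± 3.58 CPM per kb. The lowest of the 8 was Birc3 in hr and EF, with 0.605 ± 0.0900 and 0.555 ± 0.0915 CPM per kb, and Cntn5 in the other groups. In hr, Cfap300 and Cep126 had nearly the same mean (11.2 ± 0.520 and 11.1 ± 5.57 CPM per kb), which for Cep126 averages over 2 unlike pairs of libraries, as given above.

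Within 3 Mb of Yap1 lie 57 further annotated genes. They are what was left after the 8 had been picked on their values, and those named here were named for their level or call, so how they compare with Yap1 is a description. Several differed in the direction opposite to Yap1. Pgr, the progesterone receptor gene, and Gm16485 lie between Cep126 and Arhgap42. Pgr had 0.0852, 0.259, 0.352 and 1.05 CPM in hr, against 41.3 and 117 CPM in ha and 0.179 and 0.0794 CPM in EF. It fell by 7.47 ± 0.59 on the log2 scale in hr against ha (edgeR adjusted p = 0.000144) and passed the test as higher in ha than in EF (edgeR adjusted p = 0.000461). Pgr also rose in experiment 1, with 10.8, 53.2, 33.9 and 131 CPM in EFPrx1MSCLC against 0.161, 0 and 0.134 CPM in MSC (log2 fold change 8.75 ± 1.24, edgeR adjusted p = 0.00463). Gm16485 had 0.170, 0, 0.211 and 0.0878 CPM in hr, against 4.55 and 26.8 CPM in ha and 0 counts in EF. It passed the test as higher in ha than in EF (edgeR adjusted p = 0.00329) and fell by 6.87 ± 0.87 in hr against ha (edgeR adjusted p = 0.00163). The long non-coding RNA Gm32014, distal of Cep126, had 1 count in all hr libraries, against 12 and 37 counts in ha 1 and ha 2, and passed as lower in hr than in ha (edgeR adjusted p = 0.00228). Trpc6, a calcium channel gene between Cep126 and Pgr, stayed at or below 1.53 CPM in every library. In gene order, those higher in hr than in ha on the distal side were thus interrupted by Pgr, Gm16485 and Gm32014. These genes were near 0 in hr and EF, and a gene that is hardly expressed cannot show a rise. Nothing about the DNA of this stretch is therefore read from the order. The calls of Pgr and Gm16485 in ha against EF and in hr against ha held with near-identical libraries summed.

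Gm45494, a long non-coding RNA that starts 0.2 kb from Yap1 and runs the other way, was higher in hr, with 2.90, 3.62, 1.48 and 1.93 CPM, against 0 and 0.672 CPM in ha and 0.536 and 0.873 CPM in EF. Its log2 fold change in hr against ha was 2.82 ± 0.91 (edgeR adjusted p = 0.0423), a call lost in 8 of 14 alternatives, among them the fits without ha 1 and without EF 1 or EF 2. No source used here says whether strand was used in counting. At Yap1, Arhgap42 and Cntn5, reads of the gene and of overlapping or antisense genes may therefore be mixed.

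On the proximal side beyond Tmem123, other genes were also highest in ha. Pdgfd, which encodes a ligand of the PDGF beta receptor, had 4.77, 5.09, 7.25 and 7.29 CPM in hr, against 20.6 and 44.4 CPM in ha and 8.84 and 7.70 CPM in EF. It rose by 1.96 ± 0.36 in ha against EF (edgeR adjusted p = 0.00458) and fell by 2.40 ± 0.30 in hr against ha (edgeR adjusted p = 0.000915). Casp4 and Casp12, genes of inflammatory caspases, rose by 1.22 ± 0.36 and 1.83 ± 0.36 in ha against EF (edgeR adjusted p = 0.0280 and 0.00570) and fell by 2.21 ± 0.30 and 2.15 ± 0.29 in hr against ha (edgeR adjusted p = 0.00136 and 0.00133). The matrix protease gene Mmp3 had 0 counts in hr, against 1.82 and 39.9 CPM in ha and 1 count in EF, and passed as lower in hr than in ha (edgeR adjusted p = 0.0145). Most of its ha counts came from ha 2, and with no filter on low counts this call was lost. Dcun1d5, a gene of cullin neddylation, went the other way, falling by 0.58 ± 0.10 in ha against EF (edgeR adjusted p = 0.00293) and by 0.43 ± 0.08 in hr against EF (edgeR adjusted p = 0.0289), a call lost without any 1 hr or EF library. In experiment 1 Pdgfd rose by 3.47 ± 0.62 (edgeR adjusted p = 0.00935), while Casp4 fell by 2.17 ± 0.28 (edgeR adjusted p = 0.00356) and Mmp3 by 5.77 ± 1.42 (edgeR adjusted p = 0.0294), with 1.68 to 61.6 CPM in EFPrx1MSCLC and 490 to 2539 CPM in MSC. That call of Mmp3 was lost without EFPrx1MSCLC 229, MSC 234 or MSC 237. Mmp12, a macrophage protease gene, differed by -5.26 ± 1.89 and did not pass the test (edgeR adjusted p = 0.0878). It had 39.5 CPM in EFPrx1MSCLC 219 and 0.263 to 0.708 CPM in the other EFPrx1MSCLC libraries. Without EFPrx1MSCLC 219 it differed by -9.50 and passed (edgeR adjusted p = 0.00506). With near-identical libraries summed, Pdgfd, Casp4 and Casp12 passed in hr against ha, Mmp3 lost its call there, and all 5 lost theirs in ha against EF. Of the calls in ha against EF, Casp4 and Mmp3 also lost theirs without ha 2, EF 1 or EF 2.

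Of these 57 genes 11 could be tested in experiment 2. In hr against ha 1 rose and 8 fell, with a median log2 fold change of -2.21, beside -0.00 over all genes tested, of which 17.9% rose and 21.5% fell. In ha against EF 7 rose and 1 fell, with a median of 1.83 beside 0.05, where 23.0% of all genes rose and 19.6% fell. Over all of chromosome 9, 80 of 790 genes tested rose and 274 fell in hr against ha, with a median of -0.26. These counts describe what is left of the neighbourhood without the 8 genes and were not tested as a group. Among the 11 genes, Pgr, Gm16485, Gm32014 and Mmp3 each held 0 to 21 counts over all hr libraries and 0 to 3 over EF. They passed the filter on low counts only through ha, which fixed their direction in both comparisons with ha. The counts and medians of the 11 are therefore partly set by the filter.

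By likeness of their levels to Yap1 over the 8 libraries of experiment 2 (Pearson r of log2 CPM among 9421 genes, a description that mostly follows the 3 groups), the first 5 genes were Gm9892 (r = 0.998), Cul5 (0.997), Card19 (0.996), Map3k9 (0.995) and Arf3 (0.994). Cul5, a cullin gene of the ubiquitin system, is also on chromosome 9, 45.6 Mb from Yap1. It had 1019, 996, 649 and 627 CPM in hr, against 60.6 and 78.6 CPM in ha and 626 and 615 CPM in EF. Among the neighbours Cep126 (0.856), Arhgap42 (0.852) and Cfap300 (0.789) were less like Yap1, and Tmem123 (-0.828) and Birc2 (-0.963) ran against it. Over the 7 libraries of experiment 1 the first 5 of 9848 genes were Tcf20, Lrp5, Wdr33, Ppp6r3 and Crnkl1 (r = 0.994 to 0.999), none of them in the other list, and Arhgap42 (0.887) and Birc2 (0.856) both followed Yap1.

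Among the partners of YAP1 and its paralog, Tead4 moved in the direction of Yap1 and Wwtr1 in the other in both comparisons with ha. In hr against EF 0 of the 7 tested were called. Of 7 partners and paralogs tested, 2 rose and 1 fell in ha against EF (median log2 fold change -0.22), and 1 rose and 2 fell in hr against ha (0.26), beside 42.6% and 39.4% of all genes called. In experiment 1 2 rose and 0 fell (1.13), beside 19.8%. The shares called in the comparisons with ha are near those of all genes, and nothing is read from them. Wwtr1, which encodes the YAP1 paralog TAZ, averaged 132 ± 4.70 CPM in hr (n = 4), 173 ± 4.93 CPM in ha and 116 ± 0.580 CPM in EF (n = 2 each). It rose by 0.59 ± 0.09 in ha against EF and fell by 0.40 ± 0.08 in hr against ha (edgeR adjusted p = 0.00245 and 0.00632), opposite to Yap1. Tead4 went with Yap1, falling by 1.88 ± 0.43 in ha against EF and rising by 1.85 ± 0.40 in hr against ha (edgeR adjusted p = 0.0111 and 0.00914). In experiment 1 the 2 were Tead4, which rose by 2.84 ± 0.67 and Vgll4, a gene that competes with YAP1 for TEAD, by 1.16 ± 0.33 (edgeR adjusted p = 0.0254 and 0.0461). With near-identical libraries summed, all calls of this list in both comparisons with ha were lost, and 1 was left in ha against EF without EF 1 and in hr against ha without ha 2. Tead4 lost its call in ha against EF without ha 2 or EF 1, in hr against ha without ha 2, and in experiment 1 without EFPrx1MSCLC 229, MSC 234 or MSC 237. Vgll4 lost its call in experiment 1 in every omission except that of MSC 202.

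Of 22 YAP1/TAZ-TEAD target genes known from human cancers, 6 rose and 2 fell in ha against EF, beside 42.6% of all genes called, with a median log2 fold change of 0.12. In hr against ha 1 rose and 7 fell, beside 39.4%, with a median of -0.21. These shares are not above those of all genes. In hr against EF 3 rose and 2 fell, beside 6.95%, calls that were lost without EF 1 or EF 2 and with near-identical libraries summed. Those with a direction opposite to Yap1 in ha against EF included Igfbp3, an IGF-binding protein gene, which rose by 4.66 ± 0.28 in ha against EF (edgeR adjusted p = 8.19e-05), and Tgfb2, a TGF-beta ligand gene, which rose by 2.67 ± 0.33 (edgeR adjusted p = 0.000926). Dock5 was called in the direction of Yap1 in both comparisons with ha. With near-identical libraries summed it lost both calls, at -0.68 in ha against EF and 0.88 in hr against ha. In experiment 1 7 rose and 2 fell (median 1.44), beside 19.8% of all genes called. Tgfb2 rose there too, by 3.73 ± 0.38 (edgeR adjusted p = 0.00179), which is the direction of Yap1 in that experiment, and so did Ajuba, a gene of a junctional scaffold, by 2.60 ± 0.24 (edgeR adjusted p = 0.00134). Over all genes tested the medians were 0.05, -0.00 and 0.04. With near-identical libraries summed, 4 of the 22 passed in ha against EF and 5 in hr against ha, Igfbp3 and Tgfb2 among them in both. The count of experiment 1 was 14 without MSC 202, 5 without MSC 234 and 4 without MSC 237. Over all genes it was 5087 of 15114, 1275 of 15220 and 1219 of 15183. Summing also lowered the counts over all genes, as given at the end, so nothing is read from these changes. Among 19 Hippo kinases and scaffolds 2 rose and 5 fell in ha against EF (42.6% of all genes called) and 4 rose and 3 fell in hr against ha (39.4%), shares near those of all genes. Wwc1, which encodes the scaffold KIBRA, fell by 2.77 ± 0.36 in ha against EF and rose by 2.66 ± 0.33 in hr against ha (edgeR adjusted p = 0.00108 and 0.000954). Of this list 1 passed in ha against EF with near-identical libraries summed, namely Wwc1, and 4 without EF 1 or EF 2. In hr against ha 2 passed with them summed, and 4 without hr 2-1, hr 2-2, EF 1 or EF 2.

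Genes of the IAP family and partners of the cIAP proteins changed in both directions. Of 23 tested, 3 rose and 4 fell in ha against EF (median log2 fold change 0.01, 42.6% of all genes called), and 5 rose and 2 fell in hr against ha (-0.05, 39.4%). Birc5, which encodes the IAP family member survivin, fell by 1.75 ± 0.24 in ha against EF and rose by 1.30 ± 0.21 in hr against ha (edgeR adjusted p = 0.00141 and 0.00305), opposite to Birc2 and Birc3. With near-identical libraries summed, Birc5 was the only 1 of the list that passed in either comparison, and in hr against ha 2 passed without ha 2. In ha against EF the count was 4 without ha 2 or hr 2-1, 2 without EF 1 and 1 without EF 2. In experiment 1 2 rose and 4 fell, beside 19.8% of all genes called. Naip5 and Naip6, IAP family genes of inflammasome sensors for bacteria, fell by 4.09 ± 0.51 and 2.89 ± 0.65 (edgeR adjusted p = 0.00310 and 0.0217), beside the hematopoietic markers given above. The count was 3 without EFPrx1MSCLC 221 or 229, where Naip6 lost its call, beside 1673 of 14235 and 1580 of 14220 over all genes. Of 11 genes of cilia and centrosomes tested, 5 rose and 2 fell in ha against EF (42.6% of all genes called) and 1 rose and 4 fell in hr against ha (39.4%), where Cfap300 and Cep126 were lower in ha than in EF and higher in hr than in ha. In hr against EF 2 rose and 0 fell (6.95%), Ofd1, a centriole gene, by 0.70 ± 0.11 and Ift88 by 0.66 ± 0.12 (edgeR adjusted p = 0.0158 and 0.0212). In experiment 1 2 rose and 0 fell (19.8%), Dnaaf5 by 1.22 ± 0.24 and Ift140 by 1.00 ± 0.26 (edgeR adjusted p = 0.0126 and 0.0328). In experiment 1 this share is near that of all genes. Nothing is read from the counts of either comparison, since their calls were not stable. Both calls in hr against EF were lost without EF 1 or EF 2 and with near-identical libraries summed, and that of Ift88 also without hr 1-2, 2-1 or 2-2. Both calls of experiment 1 were lost without MSC 234 or 237, and that of Ift140 also without EFPrx1MSCLC 219, 221 or 229. Without MSC 202 6 genes of the list passed, beside 5087 of 15114 over all genes. Ift88, a gene of transport within cilia, rose by 1.18 ± 0.13 in ha against EF and fell by 0.52 ± 0.11 in hr against ha (edgeR adjusted p = 0.000611 and 0.00758). All calls of this list in both comparisons with ha were lost with near-identical libraries summed, and in ha against EF 3 passed without EF 1 and 4 without EF 2.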

How the data were processed

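Poly(A)-enriched RNA-seq of 15 mouse libraries was used. The authors deposited 1 table of expected counts, estimates of reads per gene that can be fractional. The submitters' processing notes name STAR, RSEM and the build GRCm38.p6 but no versions. No source used here gives the annotation or the use of strand in counting. RSEM divides reads between near-identical sequences, so values of paralogs are uncertain. Groups are the genotype labels.

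Expected counts were rounded (8.27% were not whole). Genes were filtered with edgeR's filterByExpr (minimum count 10), scaled by TMM and compared with edgeR's quasi-likelihood test (robust, two-sided) within each experiment, with Benjamini-Hochberg adjustment over 14596 genes in experiment 1 and 13998 in experiment 2. CPM are relative to the library total. Versions were edgeR 4.0.16 and DESeq2 1.42.0, under R 4.3.3. Gene symbols and positions come from GENCODE M21 on GRCm38, promoters from RefSeq on GRCm38.p6. A floor of 3 counts over a group gives the bounds of folds against a group at 0, and intervals (95%, exact) cover counting error only. No label names separate cultures or animals, so the spread behind a p-value may be technical.

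The 8 genes and the gene lists were chosen with earlier results of these data known. Beside the 8, the text names genes within 3 Mb of Yap1 by a rule (a mean of at least 1 CPM in some group, or called), up to 4 called genes per list and comparison, and the 5 genes most like Yap1 per experiment with at least 10 CPM. Jrkl and Trpc6 were added for their position. Whether the number at the end of the title pairs libraries could not be decided. Deviations of libraries with the same number correlated at 0.001 to 0.013. Those of EF and hr lay close to sampling noise, so they would correlate little with or without a pairing. In simulated counts, 99% of genes changed by 1.5 (log2) were recovered in experiment 1 (14429 genes) and 85% in ha against EF (13526 genes). These counts had the same spread for every gene and library, and only genes with higher counts were changed. The libraries of experiment 1 were less even, with distances of 7.15 to 102 times the sampling noise within a group. The recovered shares therefore check the code and do not give the power in these data. Alternatives were DESeq2 size factors, DESeq2's Wald test, no filter, a filter of 5 CPM, windows of 1 and 5 Mb, only the groups compared, a replicate block, near-identical libraries summed, and each library left out.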

Additional observations from a re-analysis of the deposited data

Results flagged for a closer look

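Among the 36 sets of 4 libraries examined, 2 held a library far from the other 3, and chance flags about 1 set in 20. Birc2 had 26.4 CPM in hr 2-1, below the 31.0 to 31.5 CPM of the other hr libraries, although hr 2-2, its near-identical partner, had 31.5 CPM. Gm32014 had 0.0878 CPM in hr 2-2, which is 1 count, and 0 in the other hr libraries.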

How the results depend on the processing

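The differences of Yap1 in ha against EF (-2.78 to -2.68), hr against EF (0.30 to 0.41) and hr against ha (3.02 to 3.14) kept their direction and their side of the threshold in all 15 alternatives. In experiment 1 the value was 1.12 and its call lost with no filter. With a library left out it was 0.919 to 1.48, and the call was lost in every omission except that of MSC 202. The counts within 3 Mb that follow include the 8 genes picked on these values. In experiment 1 7 of the 8 and 16 others were tested, and in experiment 2 8 and 11. The shares called over all genes were 19.8% in experiment 1, 42.6% in ha against EF, 6.95% in hr against EF and 39.4% in hr against ha. Genes called within 3 Mb numbered 9 in experiment 1 (5 with no filter, 4 to 11 with a library left out), 14 in ha against EF (4 with near-identical libraries summed, 9 to 14 with a library left out), 2 in hr against EF (1 with no filter, 0 summed, 0 to 3 with a library left out) and 17 in hr against ha (11 summed). Over all genes, 2887 were called in experiment 1 (4598 by DESeq2's Wald test, 1219 to 5087 with a library left out), 5961 in ha against EF (736 summed, 3070 to 5732 with a library left out), 973 in hr against EF (1973 by the Wald test, 1927 with only the groups compared, 0 to 1796 with a library left out) and 5517 in hr against ha (1272 summed). For hr against EF, edgeR called 0 genes with near-identical libraries summed, 797 had an unadjusted p under 0.05, and without EF 1 or EF 2 it called 0 with 1918 and 1888. With 1 EF library left, that library is assumed to vary like the other groups. Summing leaves fewer libraries, and beyond that the cause was not tested. Counts of the gene lists in an alternative are to be read beside these counts over all genes. In hr against EF, the sign turned for Birc2 (-0.015 to 0.066 with a library left out) and Dync2h1 (-0.051 to 0.14) without hr 2-2 and for Birc3 (-0.041 to 0.33) without EF 1.

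With the title's last number as a replicate block, 322 of 13998 genes were called in hr against EF and 1 within 3 Mb of Yap1. In ha against EF 4 of 23 genes of the IAP family and cIAP partners were called, beside 5232 of 13998 over all genes.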
